A study of Mus musculus with 16 samples.

Results

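Liver RNA of male C57BL/6 mice whose high-fat diet took turns with chow was compared with liver RNA of mice kept on the high-fat diet without a break. The comparison uses 8 of the 16 libraries of the series, 4 chow-alternating and 4 high-fat. A gene entered it where at least 4 of these 8 libraries reached 1 TPM, a level corrected for transcript length and scaled to a fixed sum in each library, and 10899 of 22612 genes did so. All mice were 7 weeks old at purchase, were fed their diets for 16 weeks in groups of 6, and gave liver after a night without food. Chow-alternating mice changed every 2 weeks between the high-fat diet, with 58% of energy from fat, and chow, with 11%. High-fat mice ate only the high-fat diet. Values are also given, where they place a gene, of the chow group, fed chow throughout, and of the ketogenic-alternating group, which changed between the high-fat diet and a ketogenic diet with 90.5% of energy from fat. No label records the last diet of the alternating mice, the hour at which liver was taken, or that each library came from its own mouse, so p-values measure the spread between these libraries, which may be technical. The chow-alternating and high-fat groups differ both in what was eaten overall and possibly in the last diet, and these cannot be told apart.

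The liver clears foreign compounds with P450 enzymes, which oxidise drugs, plant compounds and hormones before conjugating enzymes make them soluble for export. In the mouse, genes of the Cyp2b, Cyp2c and Cyp3a families are switched on by the nuclear receptors CAR and PXR, which sense foreign compounds and bile acids. The liver also packs fat into lipoproteins and droplets, and the membrane-bound factor CREB-H drives several genes of this traffic, among them Apoa4 and Fgf21, in fasted and fat-loaded mouse liver.

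Hepatocyte genes dominated both groups: the 10 hepatocyte markers together held 125700 to 137900 TPM in chow-alternating and 102000 to 138500 TPM in high-fat livers. Of 8 markers of exocrine pancreas 6 were listed at 0 in all 8 libraries, as were 5 of 8 of intestinal epithelium, among them Sis, Alpi and Cdh17. Not all members were absent: the pancreas marker Cela1 averaged 24 TPM in chow-alternating and 24.3 TPM in high-fat livers. The intestinal marker Lgals4 averaged 19 and 21.6 TPM in the same groups. The high-fat libraries were the more scattered. The median SD of a gene on the log2(TPM + 1) scale was 0.166 in chow-alternating, 0.203 in ketogenic-alternating, 0.29 in chow and 0.32 in high-fat livers, and it was larger in high-fat than in chow-alternating livers for 8980 genes (82.4%). High-fat replicates 1 and 3 lay at opposite ends of the first principal component of the 8 libraries, at 37.1 and -31.8, with the chow-alternating libraries between -7.77 and 9.37. High-fat replicates 1 and 2 had over 33% of their TPM in their 20 highest genes (34.3% and 33.5%), against 29.8 to 31.5% in chow-alternating livers. Replicate 3 had the lowest levels of major urinary protein (Mup) genes, abundant male liver products whose copies are so alike that their split is uncertain. The 21 Mup genes summed to between 63600 and 84990 TPM in chow-alternating livers and to 150100, 137500, 39050 and 136500 TPM in high-fat replicates 1 to 4. In the fit without high-fat replicates 1 and 2 the median log2 difference of all genes was -0.14, against 0.02 with all 8 libraries.

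**Figure D1:**
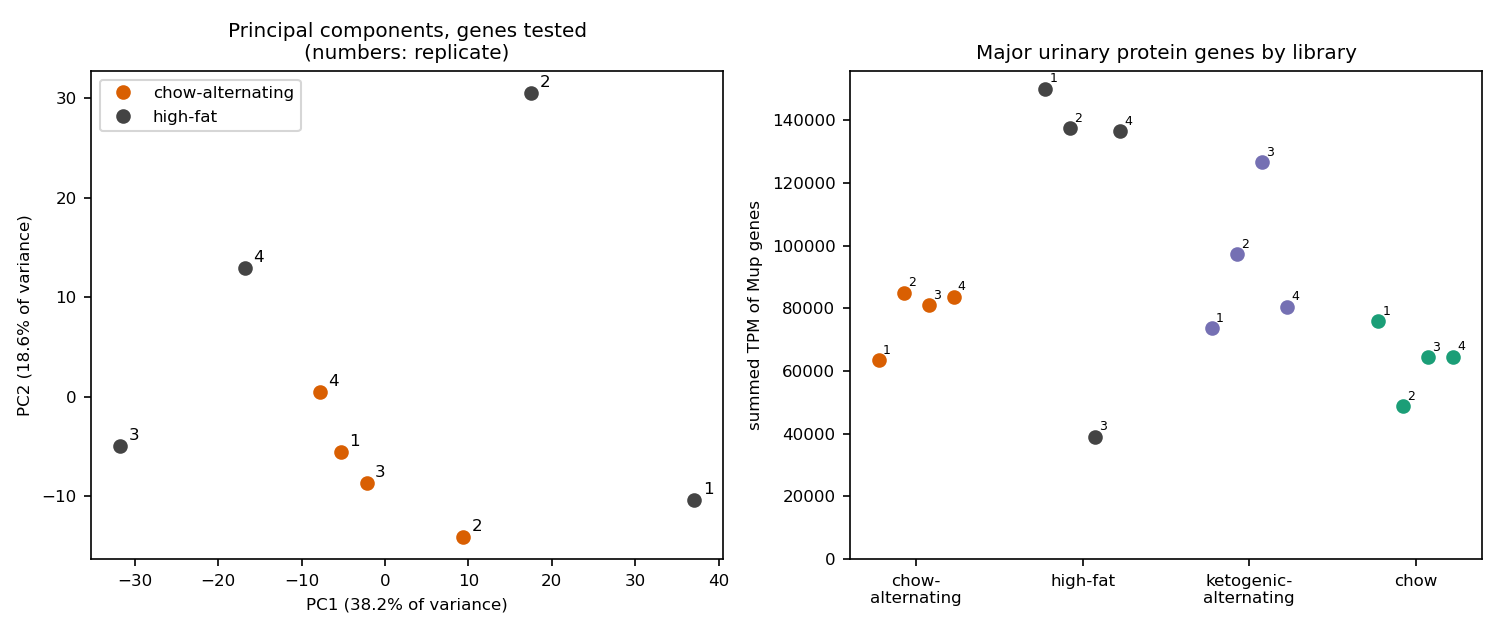
Left, the 4 chow-alternating and 4 high-fat libraries on the first and second principal components of the genes tested, with 38.2% and 18.6% of the variance and replicate numbers beside the points. Right, summed TPM of Mup genes in each library of the 4 diet groups; high-fat replicate 3 lies below all chow-alternating libraries and the other high-fat libraries lie above them.

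Few single genes separated the groups. With limma on log2(TPM + 1), 5 of 10899 genes (0.0459%) had a Benjamini-Hochberg adjusted p below 0.05, and 4 of these (0.0367%) also differed by at least 2-fold. The P450 genes Cyp2b10, Cyp2c29 and Cyp2c55 rose in chow-alternating livers (3 genes, 0.0275% of those tested), and the lipid carriers Apoa4 and Fabp2 fell (2 genes, 0.0184%). At an unadjusted p below 0.05 there were 452 genes (4.15%), of which 205 were higher (1.88%) and 247 lower (2.27%). The 4 libraries of a group lay entirely above or below the 4 of the other in 329 genes (3.02%), of which 194 were higher (1.78%) and 135 lower (1.24%) in chow-alternating livers. Differences were mostly small. The median over all genes was 0.02 on the log2 scale, with 5th and 95th percentiles of -0.35 and 0.33.

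**Figure D2:**
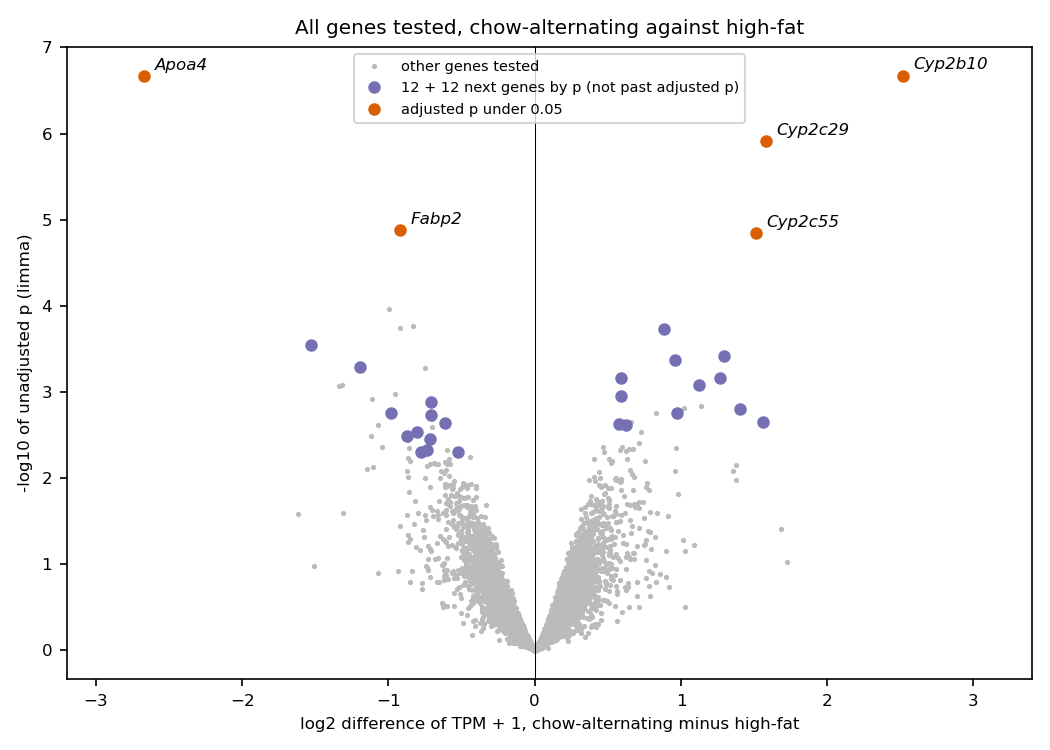
Log2 difference of TPM + 1 (chow-alternating minus high-fat) against -log10 of the unadjusted limma p for 10899 genes. The 5 named points are the genes past an adjusted p of 0.05, and the purple points are the 12 higher and 12 lower genes next in order of p with a mean of at least 5 TPM.

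Cyp2b10 (ENSMUSG00000030483, chromosome 7, 25897620 to 25926624 on mm10), the CAR-induced P450 that serves as the usual marker of that receptor in mouse liver, had the largest rise of the genes that passed. It had 6.18, 12.3, 8.33 and 7.72 TPM in the chow-alternating livers, against 0.454, 1.39, 0.48 and 0.411 TPM in the high-fat livers. The lowest chow-alternating library stood well above the highest high-fat library. The means were 8.62 ± 2.60 and 0.684 ± 0.473 TPM (SD, n = 4 each), a ratio of 12.6, and the log2 difference was 2.52 (SE 0.234, limma adjusted p = 0.00117). Every high-fat value but that of replicate 2 lay below 1 TPM. The chow-alternating libraries alone were thus enough to meet the filter, and the ratio rests on values near the floor. With a pseudocount of 0.1 the log2 difference was 3.59 (limma adjusted p = 0.00297). Cyp2b10 passed in each of 8 fits that left out 1 library, with adjusted p up to 0.027, and in the fit without high-fat replicates 1 and 2. Nearly all of the gene's TPM lay on 1 of its 3 transcripts, between 98.8% and 100% in the 8 libraries.

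Cyp2c29 (ENSMUSG00000003053, chromosome 19, 39269405 to 39330713), an abundant Cyp2c enzyme that oxidises drugs and polyunsaturated fatty acids, stood at 1355, 1090, 1568 and 1790 TPM in chow-alternating livers and at 401, 525, 548 and 443 TPM in high-fat livers. The groups did not overlap, and the ratio of means was 3.03. The log2 difference was 1.58 (SE 0.174, limma adjusted p = 0.00448), and it passed in 8 of 8 fits that left out 1 library. Cyp2c55 (ENSMUSG00000025002, chromosome 19, 39007019 to 39042693), a related enzyme known in mice for induction through CAR and PXR, was far scarcer. It had 3.53, 1.99, 3.4 and 3.98 TPM in chow-alternating livers and 0.146, 0.556, 0.874 and 0.329 TPM in high-fat livers. These groups too were separate, by a ratio of means of 6.77. Every high-fat value lay below 1 TPM, so the gene met the filter only through the chow-alternating libraries. The filter thus fixed the separation, and the ratio rests on values near the floor. The log2 difference was 1.51 (SE 0.213, limma adjusted p = 0.0313), and this call was lost in 6 of 8 fits that left out 1 library, with adjusted p up to 0.212. Reads of near-identical Cyp2b and Cyp2c copies were shared out by estimation, so the split between members of these families is uncertain.

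Apoa4 (ENSMUSG00000032080, chromosome 9, 46240696 to 46243459), an apolipoprotein of triglyceride-rich particles that mouse liver makes in larger amounts when fat accumulates, had the larger fall. It had 822, 748, 388 and 467 TPM in chow-alternating livers and 3691, 3490, 4964 and 2887 TPM in high-fat livers. Every high-fat library was above every chow-alternating one. The means were 606 ± 211 and 3758 ± 874 TPM (SD, n = 4 each), so that the high-fat mean was 6.2 times the other. The log2 difference was -2.67 (SE 0.248, limma adjusted p = 0.00117), and it passed in 8 of 8 fits that left out 1 library. Fabp2 (ENSMUSG00000023057, chromosome 3, 122895072 to 122899506), the fatty acid binding protein typical of intestine, had 101, 80.3, 91.1 and 84.9 TPM in chow-alternating livers and 181, 151, 174 and 171 TPM in high-fat livers. The groups did not overlap and each was tight. The log2 difference of Fabp2 was -0.92 (SE 0.128, limma adjusted p = 0.0313), and the call was lost in 6 of 8 fits that left out 1 library, with adjusted p up to 0.22.

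In the fit without high-fat replicates 1 and 2, the differences of Apoa4 (-2.71), Cyp2c29 (1.53), Fabp2 (-0.95) and Cyp2c55 (1.39) kept their size, but with 2 high-fat libraries the adjusted p was 0.0896 for the first 3 and 0.144 for Cyp2c55. In the fit without high-fat replicate 3, all 5 genes passed among 32.

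**Figure D3:**
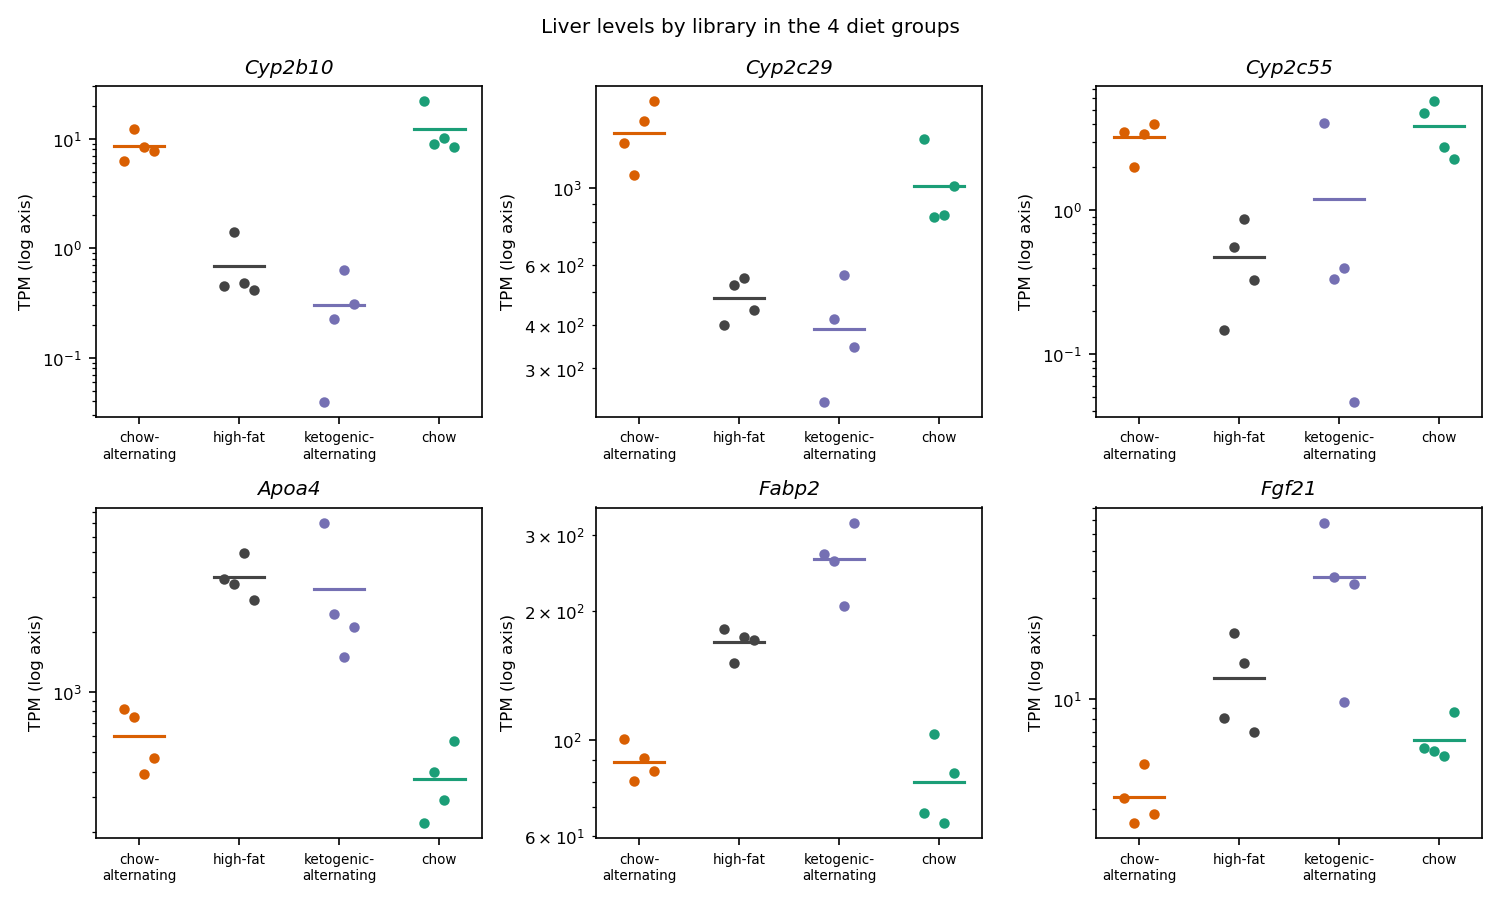
TPM on a log axis in each library of the 4 diet groups for the 5 genes past an adjusted p of 0.05 and for Fgf21, which did not pass; the horizontal lines are group means. The chow-alternating and high-fat points do not overlap in any panel.

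The other diets place these genes. Cyp2b10 averaged 8.62 TPM in chow-alternating, 0.302 TPM in ketogenic-alternating and 12.3 TPM in chow livers. For Cyp2c29 the same means were 1451, 390 and 1017 TPM, and for Cyp2c55 they were 3.22, 1.21 and 3.88 TPM. The ketogenic-alternating mean of Cyp2c55 rests on 1 library, since replicates 1 to 4 had 4.04, 0.33, 0.399 and 0.0466 TPM. Apoa4 averaged 606 TPM in chow-alternating, 3280 TPM in ketogenic-alternating and 369 TPM in chow livers, and Fabp2 89.2, 264 and 79.9 TPM in the same order.

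Chow-alternating livers were set against each of these groups in a fit of its own. Against ketogenic-alternating livers, 554 of 11002 genes (5.04%) had an adjusted p below 0.05, 80 of them higher (0.727%) and 474 lower (4.31%), and 86 (0.782%) also differed by at least 2-fold. Cyp2b10 was higher with chow intervals than with ketogenic intervals by 2.87 on the log2 scale (limma adjusted p = 0.000141) and Cyp2c29 by 1.93 (adjusted p = 0.00294). Apoa4 was lower, with a log2 difference of -2.23 (limma adjusted p = 0.0166), as was Fabp2 with -1.54 (adjusted p = 0.000328). Cyp2c55 did not pass, at 1.23 (adjusted p = 0.0996), but without ketogenic-alternating replicate 1 its difference was 1.73 (adjusted p = 0.0031). The call of Apoa4 was lost without chow-alternating replicate 3 (adjusted p = 0.0507). Against chow livers, 126 of 10862 genes (1.16%) passed, 70 of them higher (0.644%) and 56 lower (0.516%), and 67 (0.617%) also differed by at least 2-fold; none of the 5 was among them. Their log2 differences from chow were -0.40 (SE 0.284) for Cyp2b10, 0.52 (SE 0.195) for Cyp2c29, -0.17 (SE 0.251) for Cyp2c55, 0.73 (SE 0.3) for Apoa4 and 0.18 (SE 0.16) for Fabp2, with limma adjusted p between 0.283 and 0.886. A p that misses the threshold does not show equal levels. Chow replicates 2 and 3 had 34.2% and 38.8% of their TPM in their 20 highest genes, also over 33%. Mitochondrial genes held 13.6% and 18.4% of the TPM in these libraries. The chow-alternating libraries serve in all of these fits, which are therefore not independent of each other.

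The stretches before the start sites of the 5 genes are shown because these genes changed and nuclear receptors bind short motifs in such regions. They are the 250 bases upstream of the RefSeq start on the plus strand of GRCm38.p6, with motif matches in capitals; all 5 genes were found in the RefSeq table. The Cyp2b10 stretch is chr7:25897408-25897657, that of Cyp2c29 chr19:39286835-39287084, that of Cyp2c55 chr19:39006769-39007018, that of Apoa4 chr9:46240594-46240843 and that of Fabp2 chr3:122894822-122895071. The RefSeq starts differ from some gene positions given above. By those positions the Cyp2c29 stretch lies wholly inside its gene, and those of Cyp2b10 and Apoa4 run past the gene start.
Cyp2b10: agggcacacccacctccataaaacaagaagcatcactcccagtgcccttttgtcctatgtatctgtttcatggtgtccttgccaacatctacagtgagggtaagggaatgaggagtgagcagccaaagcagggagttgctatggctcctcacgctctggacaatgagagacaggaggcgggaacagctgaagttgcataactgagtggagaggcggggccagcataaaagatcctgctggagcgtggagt
Cyp2c29: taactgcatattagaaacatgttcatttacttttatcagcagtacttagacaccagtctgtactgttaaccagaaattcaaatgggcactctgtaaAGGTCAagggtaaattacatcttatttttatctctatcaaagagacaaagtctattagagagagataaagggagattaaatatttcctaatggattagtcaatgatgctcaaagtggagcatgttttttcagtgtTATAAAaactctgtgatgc
Cyp2c55: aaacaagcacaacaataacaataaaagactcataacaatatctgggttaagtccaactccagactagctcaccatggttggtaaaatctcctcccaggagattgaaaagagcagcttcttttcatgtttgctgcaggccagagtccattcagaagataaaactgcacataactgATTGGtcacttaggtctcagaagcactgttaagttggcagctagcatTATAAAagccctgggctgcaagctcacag
Apoa4: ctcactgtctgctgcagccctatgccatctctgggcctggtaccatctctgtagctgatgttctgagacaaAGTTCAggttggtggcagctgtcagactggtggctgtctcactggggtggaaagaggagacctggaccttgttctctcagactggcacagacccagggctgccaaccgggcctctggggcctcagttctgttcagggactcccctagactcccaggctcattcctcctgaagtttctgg
Fabp2: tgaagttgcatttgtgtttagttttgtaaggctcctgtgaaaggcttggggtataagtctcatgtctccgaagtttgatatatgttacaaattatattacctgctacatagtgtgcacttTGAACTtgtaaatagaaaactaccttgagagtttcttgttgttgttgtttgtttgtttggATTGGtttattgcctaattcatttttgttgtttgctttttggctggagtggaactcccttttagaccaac

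Motifs were searched on both strands in the window of 300 bases that adds 50 bases after the start. AGGTCA, the half-site of many nuclear receptors, was found in Cyp2c29 alone of the 5, starting at -154, and its share among 32851 promoters of the same length was 16.3%. AGTTCA, a variant half-site, was found in Apoa4 at -179 and on the minus strand of Fabp2 at -130, against a share of 14% of all promoters. A TATAAA box was found in Cyp2c29 at -19 and in Cyp2c55 at -29 (13.6% of all promoters). CCAAT was found on the minus strand of Cyp2b10 at 10, of Fabp2 at -70 and of Cyp2c55 at -76 (37.4%). CACGTG (7.15%) and TGACGT (7.51%) were in none of the 5. Each match describes letters in these windows and is not evidence of binding, and enhancers further away were not searched.

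The P450 genes of foreign compounds, taken with their reductase Por, lay mostly above 0. Of 27 members tested, the 3 that passed included, 21 were above 0 and 6 below (54.7% of all genes were above 0). At an unadjusted p below 0.05, 8 were higher and none lower, against 1.88% and 2.27% of all genes. The median log2 difference was 0.31, against 0.02 for all genes. The shares of all genes are the same for each list below. Without the 3 that passed, 18 of 24 were above 0, 5 were higher and none lower at an unadjusted p below 0.05, and the median was 0.28. Cyp3a11, the most abundant Cyp3a enzyme of mouse liver and a classic PXR target, had 1570, 2205, 2025 and 2250 TPM in chow-alternating livers, against 780, 1063, 1270 and 448 TPM in high-fat livers. The groups did not overlap, but the log2 difference of 1.26 did not pass (SE 0.276, limma adjusted p = 0.473). Chow livers averaged 4115 TPM, and against them Cyp3a11 was lower in chow-alternating livers (log2 difference -1.03, limma adjusted p = 0.0155). Cyp3a25 had 537, 668, 652 and 570 TPM in chow-alternating and 388, 449, 397 and 371 TPM in high-fat livers, again with no overlap (log2 difference 0.59, limma adjusted p = 0.473). Cyp3a59, another member of that cluster, had 29.9 to 49.4 TPM in chow-alternating livers and 16.1, 16.9, 33.9 and 17.2 TPM in high-fat livers, where replicate 3 alone reached into the range of the others (adjusted p = 0.662). Without high-fat replicate 3, Cyp3a11 (log2 difference 1.47, adjusted p = 0.0467) and Cyp3a59 (1.22, adjusted p = 0.0172) passed. Each passed in only 1 of 8 fits that left out 1 library. Cyp3a16 varied widely, with 1.1 to 18.8 TPM in chow-alternating livers and 0 to 5.99 TPM in high-fat livers, and Cyp2c54 differed by 0.32 (both with an adjusted p of 1). Cyp2c54 was higher in chow-alternating than in chow livers (log2 difference 0.97, limma adjusted p = 0.0165).

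**Figure D4:**
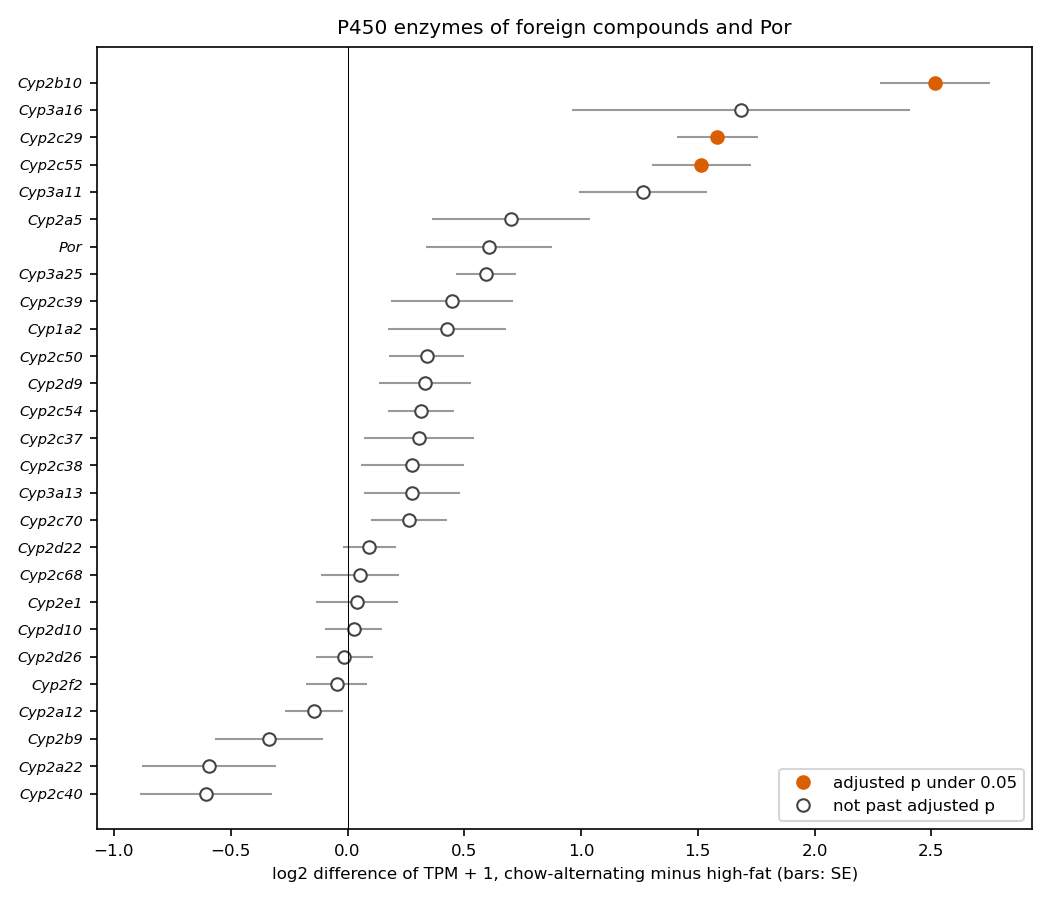
Log2 difference of TPM + 1, chow-alternating minus high-fat, with its standard error, for the 26 tested P450 genes of foreign compounds and for their reductase Por. The 3 filled points passed an adjusted p of 0.05; 21 points lie above 0.

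Genes of the next steps of detoxification did not pass the test against high-fat livers. The receptors themselves and their other targets had 26 members tested, with 16 above 0, 4 higher and 1 lower at an unadjusted p below 0.05, and a median of 0.04, which leaving out 1 library moved to between -0.003 (high-fat replicate 1) and 0.18 (high-fat replicate 4), and leaving out high-fat replicates 1 and 2 together to -0.09. Ces2a, a carboxylesterase that splits esters, had 225, 237, 226 and 276 TPM in chow-alternating livers and 118, 100, 167 and 141 TPM in high-fat livers. No libraries overlapped (log2 difference 0.89, SE 0.165, limma adjusted p = 0.225). Without high-fat replicate 3 the adjusted p was 0.0181. That was the only pass in 8 fits that left out 1 library, where the adjusted p ran up to 0.847. Chow livers averaged 406.5 TPM, and against them Ces2a was lower in chow-alternating livers (log2 difference -0.75, limma adjusted p = 0.0219). Sult1d1, a sulphotransferase, had 106 to 127 TPM in chow-alternating and 71.9 to 98.8 TPM in high-fat livers (adjusted p = 0.906), and Gadd45b, a stress gene that CAR activates, had 3.58 to 7.64 and 1.11 to 3.25 TPM in the same groups (adjusted p = 0.654). In the list of NRF2 targets and glutathione enzymes, 18 of 25 members were above 0 (54.7% of all genes), with a median of 0.23. At an unadjusted p below 0.05, 7 were higher and 2 lower (1.88% and 2.27% of all genes). Gstm3, a glutathione transferase, had 43.4, 39.9, 30.3 and 45.7 TPM in chow-alternating livers, against 21.1, 14.4, 21.9 and 8.4 TPM in high-fat livers. The log2 difference of Gstm3 was 1.29 (SE 0.263, limma adjusted p = 0.384). It had 46.1, 14.8, 8.48 and 14 TPM in ketogenic-alternating livers and 56.3, 251.2, 81.3 and 42 TPM in chow livers. Cbr1, a carbonyl reductase, averaged 0.64 higher on the log2 scale (adjusted p = 0.906). Of 5 tested AhR targets 4 were above 0 and none had an unadjusted p below 0.05, with Ahr itself at 0.28 (adjusted p = 1). The split between near-identical Gstm, Gsta and Cyp3a copies is uncertain, as above.

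Among apolipoproteins and genes of lipoprotein assembly, only Apoa4 passed: 10 of 25 members were above 0, Apoa4 was also the only one with an unadjusted p below 0.05, and the median was -0.05. Apom, the apolipoprotein that carries sphingosine-1-phosphate, had 264 to 308 TPM in chow-alternating livers and 130 to 345 TPM in high-fat livers. Pltp, the phospholipid transfer protein, had 62.3 TPM in chow-alternating replicate 1 and 21.1 to 24.3 TPM in the other 3, against 34.7 to 54.5 TPM in high-fat livers. Both had an adjusted p of 1.

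CREB-H targets and lipid genes otherwise typical of intestine or fat tissue were mostly below 0, with 12 of 14 members so. Over all genes 54.7% were above 0. At an unadjusted p below 0.05, 6 members were lower and 1 higher (2.27% and 1.88% of all genes), and the list's median was -0.32. The median was -0.45 without chow-alternating replicate 1 and -0.12 without chow-alternating replicate 4, the ends of its range when 1 library was left out. Fabp2 was the only member past the adjusted p. Fgf21, the hormone that liver releases in fasting and on low-protein or ketogenic diets, had 3.4, 2.58, 4.89 and 2.85 TPM in chow-alternating livers and 8.12, 20.4, 14.8 and 7.0 TPM in high-fat livers. The libraries were separate, with a log2 difference of -1.53 (SE 0.3, limma adjusted p = 0.313), while the mean was 37.6 TPM in ketogenic-alternating and 6.38 TPM in chow livers. Fabp5, a fatty acid carrier of skin and macrophages, had 17.1, 9.77, 10.2 and 12.5 TPM in chow-alternating livers and 18.7, 30.8, 45 and 26.9 TPM in high-fat livers (log2 difference -1.19, adjusted p = 0.41). Cidec, a protein that enlarges lipid droplets, had 1.8 to 3.26 TPM in chow-alternating livers and 3.64, 4.42, 12.9 and 6.35 TPM in high-fat livers (log2 difference -1.12, adjusted p = 0.844). None of the 3 overlapped between the groups, which naming by p favours (3.02% of all genes did not overlap). Of the adipocyte markers Lep was listed at 0 in all 8 libraries, and the 2 tested (Fabp4 and Car3) had a median of -0.54. Their levels were very unlike. Fabp4 averaged 7.79 TPM in chow-alternating and 13.4 TPM in high-fat livers, and Car3 1536 and 2137 TPM. A median of 2 such genes is not a measure of adipocyte RNA. Fabp4 is also in the intestinal-type list, and the part of adipocyte RNA in that list was not tested.

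Other lipid genes named by p were lower in chow-alternating livers without passing. Them7, a thioesterase family member, had 13.2 to 20 TPM in chow-alternating and 22.7 to 32.9 TPM in high-fat livers (limma adjusted p = 0.616), and Pnpla7, a lysophospholipase, had 31.1 to 46.8 and 51.3 to 77.1 TPM in the same groups (adjusted p = 0.666). Acnat2, which conjugates acyl groups to amino acids, was on the other side with 47.6 to 59.1 TPM in chow-alternating and 30.1 to 39.4 TPM in high-fat livers (adjusted p = 0.578). None of these 3 overlapped between the groups, which again the order by p favours (3.02% of all genes did not overlap).

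The central pathways of fat and sterol metabolism gave no gene past the adjusted p. In de novo lipogenesis 7 of 21 members were above 0 and the median was -0.16 (-0.31 without high-fat replicate 1 and -0.06 without chow-alternating replicate 3). Khk, which phosphorylates fructose, averaged 499 ± 64.0 TPM in chow-alternating and 353 ± 83.7 TPM in high-fat livers (SD, n = 4 each; limma adjusted p = 1), and Mlxipl, which encodes the sugar-sensing factor ChREBP, averaged 77.5 ± 18.5 and 102 ± 14.8 TPM in the same groups (adjusted p = 1). In triglyceride synthesis and lipases 9 of 17 were above 0 (median 0.09), with Ces3b at -0.35 and the lipase Pnpla2 at 0.30. That median changed sign, to -0.24 without high-fat replicate 1, -0.21 without high-fat replicates 1 and 2 and -0.38 with array weights. In fatty acid oxidation and PPAR alpha targets 13 of 37 were above 0 (median -0.09), with Acot3, an acyl-CoA thioesterase, at 0.65 and Vnn1, a pantetheinase, at -0.75. Leaving out 1 library moved this median to between -0.22 (high-fat replicate 1) and -0.01 (high-fat replicate 3), and leaving out high-fat replicates 1 and 2 together moved it to -0.31. Ketone body genes had a median of -0.15 over 7 members, which was -0.24 without high-fat replicate 1 and 0.03 without chow-alternating replicate 2. Bdh1, which interconverts the ketone bodies, had 110 to 153 TPM in chow-alternating and 157 to 237 TPM in high-fat livers, with no overlap (adjusted p = 1).

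Cholesterol synthesis had 7 of 25 members above 0 and a median of -0.26, with 1 higher and 1 lower at an unadjusted p below 0.05. Hmgcs1, which makes HMG-CoA in the cytosol, had 220, 80.8, 84.2 and 167 TPM in chow-alternating livers and 180, 369, 152 and 207 TPM in high-fat livers, so the groups overlapped (log2 difference -0.76, limma adjusted p = 1). Tm7sf2, a later reductase of the pathway, lay on the other side at 0.42 (adjusted p = 1). The list's median was -0.41 without chow-alternating replicate 1 and -0.003 without chow-alternating replicate 3, the ends of its range when 1 library was left out. Bile acid genes had a median of 0.00 over 18 members, with the sterol hydroxylase Cyp27a1 at 424 to 527 TPM in chow-alternating and 293 to 393 TPM in high-fat livers and the repressor Nr0b2 (SHP) at 0.49. Retinoid genes had a median of 0.01 over 10, and Bco1, which cleaves beta-carotene, had 3.09 to 3.2 TPM in chow-alternating and 3.31 to 6.69 TPM in high-fat livers. Rarres1, a gene named for its response to retinoids, had 55 to 72 TPM in chow-alternating and 68 to 177 TPM in high-fat livers. It did not pass (log2 difference -0.98, adjusted p = 0.662). Without high-fat replicate 3 its adjusted p was 0.00945, the only pass in 8 fits that left out 1 library.

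Genes of metal handling lay mostly above 0, with 13 of 16 members so (54.7% of all genes) and a median of 0.17. At an unadjusted p below 0.05, 5 were higher and none lower (1.88% and 2.27% of all genes). Hamp, which encodes hepcidin, the hormone that limits iron uptake, had 2487, 2299, 1739 and 1095 TPM in chow-alternating livers and 369, 568, 989 and 1074 TPM in high-fat livers. The groups only just failed to meet, and the log2 difference of 1.40 did not pass (SE 0.342, limma adjusted p = 0.66). Slc39a4, a zinc importer, had 18.4, 14, 18.1 and 13 TPM in chow-alternating livers and 6.57, 6.48, 11.1 and 6.94 TPM in high-fat livers. The groups of Slc39a4 did not overlap (log2 difference 0.96, adjusted p = 0.386). Without high-fat replicate 3 its adjusted p was 0.0182, the only pass in 8 fits that left out 1 library. Chow livers averaged 49 TPM, and against them Slc39a4 was lower in chow-alternating livers (log2 difference -1.53, limma adjusted p = 0.00881).

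The metallothioneins Mt2 and Mt1 bind zinc and copper and respond to glucocorticoids and fasting. Mt2 had 656, 341, 239 and 195 TPM in chow-alternating livers and 93.1, 126, 199 and 56.9 TPM in high-fat livers, where the groups overlapped by 1 library (log2 difference 1.56, limma adjusted p = 0.715). Chow livers averaged 54.5 TPM, and against them Mt2 was higher in chow-alternating livers (log2 difference 2.89, limma adjusted p = 0.0292). Mt1 had 469 to 1374 TPM in chow-alternating and 137 to 691 TPM in high-fat livers (log2 difference 1.38, adjusted p = 1). Id1, a target of the BMP signal that also controls Hamp, had 8.54 to 16.9 and 5.65 to 9.81 TPM in the same groups (adjusted p = 1).

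Genes of protein folding and stress in the endoplasmic reticulum were above 0 in 23 of 25 members (54.7% of all genes). With a median of 0.31, 7 were higher and none lower at an unadjusted p below 0.05 (1.88% and 2.27% of all genes). Creld2, a secreted chaperone induced by unfolded proteins, had 31.4, 59.4, 36 and 28.4 TPM in chow-alternating livers and 12.6, 13.1, 19.5 and 23.1 TPM in high-fat livers, without overlap (log2 difference 1.12, SE 0.252, limma adjusted p = 0.492). Hspa5, the main chaperone of this compartment, had 304 to 364 TPM in chow-alternating and 136 to 279 TPM in high-fat livers (log2 difference 0.66, adjusted p = 1). Syvn1, a ubiquitin ligase that clears misfolded proteins, had 31.9 to 50.4 and 19.6 to 30.5 TPM in the same groups (adjusted p = 0.906). No member passed, and the list's median was 0.07 without high-fat replicates 1 and 2, in a fit where the median of all genes was -0.14.

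Amino acid breakdown and the urea cycle were above 0 in 34 of 37 members (54.7% of all genes), with a median of 0.28. No member passed the adjusted p, and 6 were higher and none lower at an unadjusted p below 0.05 (1.88% and 2.27% of all genes). Ass1, which makes argininosuccinate, had 2204, 2722, 2680 and 2815 TPM in chow-alternating livers and 1712, 1151, 2685 and 1029 TPM in high-fat livers, where replicate 3 lay among the chow-alternating values and the other 3 below them. Asl, the next enzyme of the cycle, showed the same order, with 548 to 716 TPM in chow-alternating livers and 368, 230, 695 and 338 TPM in high-fat livers. Tat, which breaks down tyrosine, had 372 to 785 TPM in chow-alternating livers and 241, 231, 717 and 278 TPM in high-fat livers. Ass1, Asl and Tat had adjusted p of 1 in the comparison of all 8 libraries. Without high-fat replicate 3, Ass1 (log2 difference 1.03, limma adjusted p = 0.0467) and Asl (1.07, adjusted p = 0.0372) passed. They did so in none of the other fits that left out 1 library. The list's median was 0.51 without high-fat replicate 3, the highest of these 8 fits, and 0.10 without high-fat replicates 1 and 2. All 10 hepatocyte markers were also above 0, with a median of 0.23 (0.07 without high-fat replicates 1 and 2), and their part in these lists was not tested.

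Acute phase genes were above 0 in 17 of 23 members (median 0.22, 4 higher and 1 lower at an unadjusted p below 0.05). Orm3, an orosomucoid, had 5.45 to 7.8 TPM in chow-alternating and 1.37 to 4.58 TPM in high-fat livers, and Fgb, a fibrinogen chain, had 1616 to 2003 and 1233 to 1680 TPM in the same groups (both with a limma adjusted p of 1). Saa3, a serum amyloid that macrophages also make, was on the other side with 3.83 to 9.2 TPM in chow-alternating and 10.1 to 10.9 TPM in high-fat livers (adjusted p = 0.906).

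Interferon-response genes lay the other way: 24 of 25 members were below 0, while 54.7% of all genes were above it. At an unadjusted p below 0.05, none was higher and 8 were lower (1.88% and 2.27% of all genes), and the median was -0.42. Psmb9, an interferon-induced proteasome subunit, had 24.4, 19.3, 17.2 and 16.6 TPM in chow-alternating livers and 43.5, 26.2, 25.7 and 36.5 TPM in high-fat livers, without overlap (log2 difference -0.72, SE 0.197, limma adjusted p = 0.873). Ifit3, an antiviral effector, had 5 to 9.02 TPM in chow-alternating and 8.34 to 16.1 TPM in high-fat livers (adjusted p = 0.906), Ifit1 had 2.46 to 4.51 and 3.17 to 9.8 TPM, and Isg15, a ubiquitin-like tag, had 10.7 to 17.2 and 15.2 to 29.9 TPM in the same groups, the last 2 with an adjusted p of 1. No member passed. The list's median stayed below 0 in each fit that left out 1 library, between -0.56 and -0.28, and was -0.70 without high-fat replicates 1 and 2.

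Markers of resident macrophages (Kupffer cells) were below 0 beside this list in 12 of 12 genes, with a median of -0.37 and no gene past the adjusted p, and their summed level was 233 to 315 TPM in chow-alternating and 269 to 497 TPM in high-fat livers. Leaving out 1 library gave Kupffer cell medians between -0.53 (high-fat replicate 1) and -0.21 (high-fat replicate 3), and leaving out high-fat replicates 1 and 2 together gave -0.73. Sinusoidal endothelial markers were below 0 in 11 of 12 (median -0.14), stellate cell markers in 8 of 10 (median -0.13) and T and NK cell markers in 4 of 4 (median -0.18). Markers of recruited macrophages had a median of -0.10 over 6, B and plasma cell markers -0.15 over 5 and cholangiocyte markers 0.04 over 6. With high-fat replicates 1 and 2 left out, the medians were -0.52 for recruited macrophages, -0.40 for stellate cells and -0.26 for sinusoidal endothelium. In whole liver, fewer cells of a type and less RNA per cell cannot be told apart, and the part of these cells in the interferon list was not tested. Lgals3bp, a secreted glycoprotein that interferon raises, had 31.9 to 42 TPM in chow-alternating and 47 to 61.2 TPM in high-fat livers (limma adjusted p = 0.906). Cytokine and adhesion genes had 3 of 13 members above 0 and a median of -0.29, with Tgfb1 at -0.50 (adjusted p = 1); the median was -0.06 without high-fat replicate 3.

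**Figure D5:**
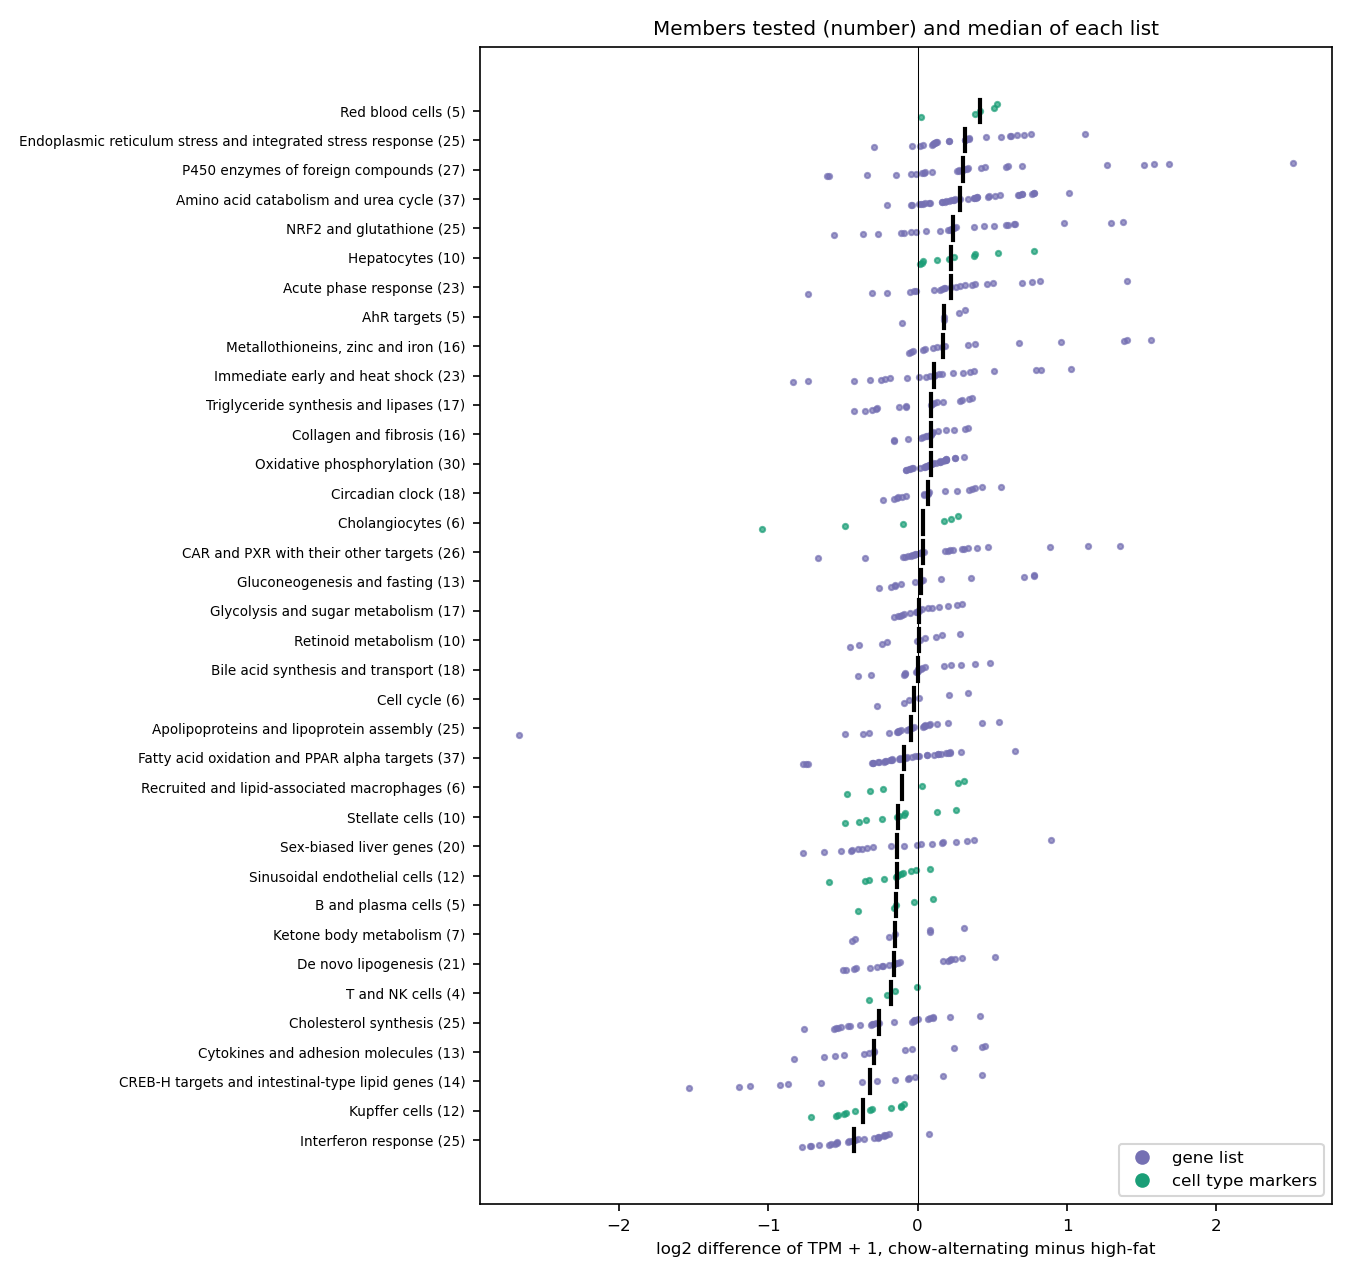
Log2 difference of TPM + 1, chow-alternating minus high-fat, for the tested members of each gene list (purple) and cell type marker set (green) with at least 4 tested members, and their median (black bar). The lowest medians are those of interferon response (-0.42) and Kupffer cells (-0.37), and red blood cells (0.42), endoplasmic reticulum stress (0.31) and P450 enzymes (0.31) have the highest.

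In the remaining gene lists no member passed, and with all 8 libraries the medians lay close to 0. Gluconeogenesis and fasting genes had a median of 0.02 over 13, glycolysis and sugar metabolism 0.01 over 17, oxidative phosphorylation 0.09 over 30, collagen and fibrosis 0.09 over 16, the circadian clock 0.07 over 18, immediate early and heat shock genes 0.11 over 23, cell cycle -0.03 over 6 and sex-biased liver genes -0.14 over 20. In these lists Eno1, a glycolytic enzyme, had 281 to 318 TPM in chow-alternating and 222 to 281 TPM in high-fat livers, Cyc1 of the respiratory chain 263 to 285 and 165 to 259 TPM, and Nr1d1, a repressor in the clock, 38.8 to 56.2 and 36.2 to 50.1 TPM. Zfp36 (log2 difference 0.79), Jund (0.51), Ndufa1 (0.31), Rrm2 (0.34), Pgk1 (0.26), Rora (0.36), Col3a1 (0.34), Tgfbi (-0.16) and Socs2 (-0.45) all had overlapping groups. Several of these medians turned with the libraries. Without high-fat replicates 1 and 2 they were -0.43 for the clock, -0.39 for cell cycle, -0.28 for collagen and fibrosis, -0.23 for glycolysis, -0.11 for immediate early genes and 0.07 for sex-biased genes, in a fit where all genes had a median of -0.14. When 1 library was left out, the clock ranged from -0.10 without high-fat replicate 1 to 0.34 without high-fat replicate 4. Collagen ranged from -0.18 without chow-alternating replicate 3 to 0.33 without high-fat replicate 3, and cell cycle from -0.18 without high-fat replicate 1 to 0.27 without high-fat replicate 3. The medians of 2 marker sets lay further from 0, with no gene past the adjusted p. Red blood cell markers had a median of 0.42 over 5, which leaving out 1 library moved to between 0.124 and 0.725. Their sum ranged from 629 to 2324 TPM in chow-alternating and 696 to 1201 TPM in high-fat livers. Neutrophil markers had a median of 0.35 over 3.

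The genes Car14, H2afx, Fbxo36, Plgrkt and Wfdc2, named for their p and in no list, did not pass (limma adjusted p between 0.715 and 0.844). Car14, a membrane carbonic anhydrase, had 47.5 to 56.7 TPM in chow-alternating and 28.2 to 41 TPM in high-fat livers, and H2afx, a histone variant that marks DNA breaks, had 13.6 to 17 and 7.29 to 10.8 TPM in the same groups. Fbxo36 had 7.23 to 9.37 TPM in chow-alternating and 11.3 to 15.2 TPM in high-fat livers, Plgrkt, a plasminogen receptor, 5.37 to 9.3 and 10 to 15.6 TPM, and Wfdc2 5.05 to 9.9 and 11 to 19.6 TPM. In these 5 genes no library of one group reached into the range of the other. Of the 24 genes named next in order of p, 20 had groups that did not overlap, as the order by p favours.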

How the data were processed

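Per the series' design text, the authors isolated RNA with an integrity number over 8, aligned reads with HISAT2 to mm10 and calculated FPKM with RSEM 1.1.17. The values deposited by the authors are TPM instead, since each column summed to 1000000. The test planned for FPKM was applied to this TPM. TPM keeps no depth, so depth is unknown and intervals that need counts are not given. A larger share of one gene lowers all others. Symbols are those deposited with the values. Positions came from GENCODE vM21 by identifier (22582 of 22612 found), and promoters from RefSeq on GRCm38.p6. Values were fitted as log2(TPM + 1) with limma 3.58.1 in R 4.3.3 with an intensity trend and no block. P-values are two-sided and adjusted by Benjamini-Hochberg over all genes tested. Such differences understate the change of genes near 1 TPM.

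The script was tested on simulated data. Alternatives were a pseudocount of 0.1, no filter, 1 fit of all 16 libraries, the replicate number as a block, median-ratio rescaling, removal of mitochondrial genes, array weights and leaving out libraries. Lists and genes were chosen with earlier results of these data known. Named genes were all past the adjusted p, then the 12 higher and 12 lower of smallest p with a mean of at least 5 TPM (leaving out predicted genes, pseudogenes and receptor segments), then from each list the member of smallest p not yet named, and the next in lists of over 15. List examples outside this rule (Lep, Fabp4, Car3, Mup genes and those under other observations) were chosen after their values were seen.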

Additional observations from a re-analysis of the deposited data

Results flagged for a closer look

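Among 152 sets of 4 values (76 named genes in 2 groups), 14 held a library far from the other 3 by Dixon's criterion at the 95% level, which chance does in about 1 of 20 sets. Of these, 5 were high-fat replicate 3 and 4 were chow-alternating replicate 1. High-fat replicate 3 stood apart with 11.12 TPM of Slc39a4, 33.89 TPM of Cyp3a59, 4.732 TPM of Gsta1, 716.8 TPM of Tat and 71.05 TPM of Cyp4a12a, the last a male-biased fatty acid hydroxylase with 230.5 to 245 TPM in the other high-fat livers. High-fat replicate 2 stood apart with 1.392 TPM of Cyp2b10 and 164.8 TPM of Cyc1, and high-fat replicate 4 with 50.09 TPM of Nr1d1. Chow-alternating replicate 1 stood apart with 71.98 TPM of Rarres1, 264 TPM of Apom, 62.34 TPM of Pltp and 7.798 TPM of Orm3. Chow-alternating replicate 2 stood apart with 119.5 TPM of Cyp4a12a and chow-alternating replicate 4 with 1616 TPM of Fgb.

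Only the 5 genes past the adjusted p against high-fat livers were open to this flag. In 4 of them the change with chow intervals differed from the change with ketogenic intervals. Since both are set against the same high-fat livers, that difference equals chow-alternating minus ketogenic-alternating, tested with limma over all genes. On the log2 scale it was 2.869 for Cyp2b10 (adjusted p = 0.000141), -2.234 for Apoa4 (adjusted p = 0.0166), 1.933 for Cyp2c29 (adjusted p = 0.00294) and -1.541 for Fabp2 (adjusted p = 0.000328). The chow-alternating and ketogenic-alternating libraries did not overlap in any of these genes. The share of all genes without overlap was not counted here, and choosing genes by the same chow-alternating libraries favours separation. Over all genes, 5.04% passed in this comparison. Other named genes were fitted in it too. Some passed, such as Cidec (-3.44, limma adjusted p = 0.00037) and Ces2a (1.17, adjusted p = 0.00345), and others such as Gadd45b did not (0.06, adjusted p = 0.896).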

How the results depend on the processing

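The main limits are 4 libraries a group, unknown depth and the scatter of the high-fat libraries. In the comparison with high-fat livers, 4 genes were called and 5 passed the adjusted p with no fold limit. These counts were 11 and 12 with the replicate block, all 5 genes shared, and 1 and 1 without the libraries with over 33% of TPM in 20 genes (high-fat replicates 1 and 2), where only Cyp2b10 remained. Leaving out 1 library gave 3 to 29 called and 3 to 32 past the adjusted p, the highest without high-fat replicate 3. Replicate numbers shared by the groups gave no clear pairing: same-numbered deviations correlated at 0.0529, -0.013, 0.169 and 0.404. Chow-alternating replicates 1 and 2 correlated best with another number, and replicates 3 and 4 with their own. So few libraries cannot decide whether the numbers pair them. Cyp2c55 also failed with a pseudocount of 0.1 (adjusted p = 0.101), with no filter on low values (0.167) and with all 16 libraries in one fit (0.42), and Fabp2 with median-ratio rescaling (0.0746). The cause was not tested.

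Against chow livers 67 genes were called, with 2 under no filter on low values, 116 under array weights and 32 to 97 when 1 library was left out. Against ketogenic-alternating livers 86 were called, with 57, 147 and 53 to 179 under the same changes. Without the filter, Apoa4 against ketogenic-alternating livers had an adjusted p of 0.061, and with array weights Cyp2c55 had 0.0132. Apoa4 had 0.0507 without chow-alternating replicate 3, and Cyp2c55 had 0.0031 without ketogenic-alternating replicate 1.

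Differences that changed sign all belonged to genes that had not passed in that comparison. Without high-fat replicates 1 and 2, Pgk1 was at -0.035, Col3a1 at -0.346 and Rora at -0.379, and Rora was at -0.007 under array weights. When 1 library was left out, Tgfbi ranged from -0.31 to 0.003, Col3a1 from -0.133 to 0.743, Rora from -0.039 to 0.631, and Cyp2c55 against chow from -0.34 to 0.008. Of 1216 recomputed differences of the 76 named genes, 1174 kept their direction and side of the threshold, and 15 of 432 list medians moved by more than the spread between libraries. Of these 15, 9 fell in the fit without high-fat replicates 1 and 2, among its 27 list medians.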

Other observations

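The genes below were chosen after their values were seen. Without high-fat replicate 3, 32 genes passed the adjusted p with limma, 18 higher and 14 lower in chow-alternating livers. Of 20 tested Mup genes 10 were among the lower ones, with log2 differences between -2.47 and -1.15 and adjusted p between 0.000257 and 0.0154. With all 8 libraries the smallest adjusted p of any Mup gene was 1. Mup17 had 776, 1071, 772 and 1178 TPM in chow-alternating livers, against 5670, 5258, 487 and 4604 TPM in high-fat livers. High-fat replicate 3 was the only one of its group below the chow-alternating range. Slco1a4, a transporter of bile acids and steroids that PXR induces in the mouse, had 59.6, 40.2, 58.6 and 62.5 TPM in chow-alternating livers and 13.3, 13.5, 67.3 and 14.6 TPM in high-fat livers. Its log2 difference was 1.91 without that library (adjusted p = 0.00188) and 1.35 with it (adjusted p = 1).

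Enzymes of amino acid breakdown had the same order. Got1, an aspartate transaminase, had 213, 192, 225 and 151 TPM in chow-alternating livers and 86.8, 65.8, 324 and 43.7 TPM in high-fat livers, and Gls2, the liver glutaminase, had 122, 84.1, 352 and 106 TPM in the high-fat livers.

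High-fat replicate 2 was low in other genes. Apoc2, the activator of lipoprotein lipase, had 49.8 TPM there, against 560 to 838 TPM in the other high-fat and 218 to 348 TPM in the chow-alternating livers. Atp5k, an ATP synthase subunit, had 31.4 TPM there and 134 to 216 TPM in the other high-fat livers, against 155 to 185 TPM in chow-alternating livers.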
